A study of Mus musculus with 30 samples.

Results

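The fibroblasts described here carried a retrovirus with no ER-MyoD insert, and their gene expression after 24 h in differentiation medium was compared with that after 12 h. The comparison used the 3 arrays titled for each of these times, 6 of the 30 arrays of the series, across all 18193 genes measured. The cells were mouse embryonic fibroblasts (MEFs) from animals of genotype MyoD-/-/Myf5-/-, so neither of the genes that start skeletal muscle differentiation was intact. The same knockout cells, with a retrovirus for MyoD fused to the hormone-binding domain of the estrogen receptor, made up the other groups: ER-MyoD wt, and ER-MyoD RRR, whose lysines 99, 102 and 104 can no longer be acetylated. Beta-estradiol, which switches the fusion protein on, was in the medium of those cells, and whether it was added to the empty retrovirus cells is not stated separately. The empty retrovirus is the study's negative control. Its later time course asks what the medium, the knockout cells and the virus did over these hours without MyoD.

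Differentiation medium is poor in serum, and the serum that it lacks normally brings growth factors, lipoproteins and hormones to cultured cells. Fibroblasts deprived of growth factors leave the cell cycle and stop making the proteins of DNA replication and mitosis. Cells that receive less cholesterol from lipoproteins release the membrane-bound SREBP transcription factors, which switch on the enzymes of sterol and fatty acid synthesis. Fibroblasts are also the main source of collagens, proteoglycans and other matrix proteins, and resting fibroblasts are known for making many of them. These points are background, and the cause of the changes below was not tested. Without 0 h arrays of the empty retrovirus cells in this comparison, time in the medium and time in culture cannot be told apart.

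Each array gave 1 signal intensity per probe set, and values below are these signals unless a log2 difference is named. Log2 differences are on the scale log2(signal + 16) after quantile normalization, which understates the change of genes with low signal. Beside each log2 difference stands its standard error from a model of all 30 arrays, with n = 3 arrays per group. Array medians lay between 42.6 and 64.1 at 12 h, where replicate 1 had the highest median of the series, and between 45.0 and 53.2 at 24 h. The ratio of 3' to 5' signal of Gapdh, which is low in intact RNA, was 0.945 to 1.40 at 12 h and 0.830 to 1.03 at 24 h. That of Actb was 1.21 to 2.07 at 12 h and 1.18 to 1.59 at 24 h. Replicate 2 had the highest ratio of the 12 h arrays for both genes. Replicates correlated with r between 0.948 and 0.969 at 12 h and between 0.968 and 0.973 at 24 h, against 0.927 to 0.955 for pairs across the times, and 12 h replicates 1 and 3 were nearest to arrays of the same cells at 6 h. The labels do not say that replicates were separate cultures, and the p-values then measure only how these samples spread, which may be technical. With 3 arrays per group, their number limits the precision.

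Between 12 h and 24 h the empty retrovirus cells raised genes of the extracellular matrix and of lipid synthesis and lowered genes of DNA replication, mitosis and ribosome assembly. Of 18193 genes, 1067 rose (5.86%) and 1210 fell (6.65%) at an adjusted p under 0.05, and the median over all genes was -0.04. At least 2-fold on the log2 scale were 403 of the rises and 332 of the falls. The 3 arrays of 24 h did not overlap the 3 of 12 h for 1023 of the genes that rose and 1163 of those that fell. With each array centred on its median in place of quantile normalization, 760 rose and 607 fell, so that rises made up 55.6% of the calls against 46.9%. Without 12 h replicate 1 the counts were 778 and 1088. Between 6 h and 12 h, tested with the same 12 h arrays, 31 genes rose and 6 fell.

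**Figure D1:**
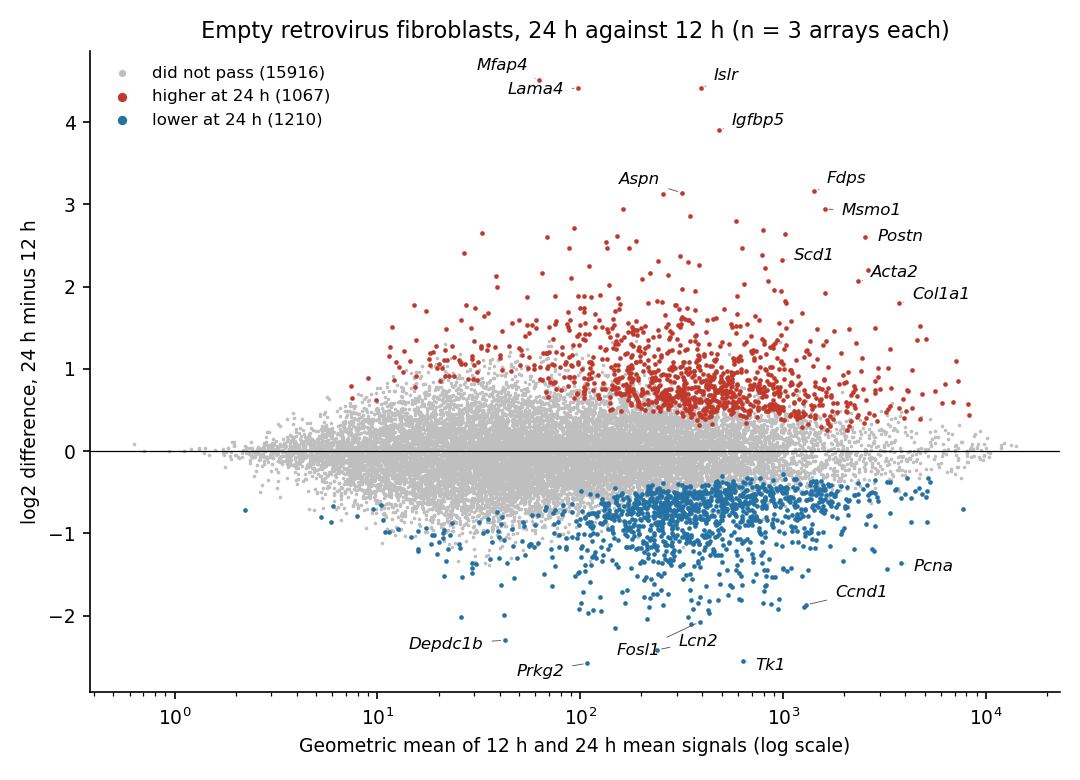
Each point is 1 of 18193 genes. The horizontal axis, a log axis, is the geometric mean of its 12 h and 24 h mean signals. The vertical axis is its log2 difference, 24 h minus 12 h. Genes past an adjusted p of 0.05 are coloured, 1067 higher and 1210 lower, and named genes such as Mfap4 (4.51) and Prkg2 (-2.58) lie at the edges of the cloud.

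The 4 largest of the 14 named rises were in genes for matrix, secreted and cell surface proteins, 2 of them close to background at 12 h, while 6 of the 14 were in genes of lipid synthesis, described below. Mfap4 encodes a glycoprotein of the elastic microfibrils. Its signals were 9.25, 6.67 and 6.91 at 12 h and 398, 638 and 511 at 24 h, a log2 difference of 4.51 ± 0.28, adjusted p = 4.04e-12. Lama4, the laminin chain of basement membranes around vessels, muscle and fat, had signals of 12.2, 15.6 and 18.5 at 12 h and 685, 660.3 and 507 at 24 h (4.41 ± 0.29, adjusted p = 1.29e-11). Every 24 h array of both genes lay far above every 12 h array, while the 12 h levels were those of a dim probe set. Islr, a cell surface protein that marks mesenchymal stromal cells, was measured well at both times, with signals of 82.4, 80.8 and 95.2 at 12 h and 1705, 1988 and 1733 at 24 h (4.41 ± 0.21, adjusted p = 7.29e-15), a 21-fold ratio of the means. Igfbp5, which binds insulin-like growth factors in the matrix, had signals of 119, 144 and 122 at 12 h and 1679, 2032 and 1741 at 24 h (3.91 ± 0.16, adjusted p = 2.11e-15, 14.2-fold). The 3 arrays of each time lay close together for both genes. At 6 h the means of Mfap4, Lama4, Islr and Igfbp5 were 5.04 ± 0.0322, 16.3 ± 4.35, 49.6 ± 3.99 and 75.2 ± 6.98 (SD, n = 3), and 12 h minus 6 h did not pass for any of these genes (adjusted p = 0.961, 0.993, 0.31 and 0.125). Averaged over all probe sets of the gene, Igfbp5 rose by 2.04 and Lama4 by 2.87. The other Igfbp5 probe set, with a mean signal of 176 over all arrays, did not change (0.17, adjusted p = 0.905 in limma's test over all probe sets).

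Of 34 measured genes of the fibrillar matrix, 21 rose and 0 fell, with a median of 0.79. Their summed signal went from 47057 to 51615 at 12 h to 85719 to 97899 at 24 h. Postn encodes periostin, which binds collagen and integrins. Its signals were 900.2, 1139 and 1097 at 12 h and 6108, 6844 and 5439 at 24 h (2.60 ± 0.12, adjusted p = 7.29e-15), so the groups did not overlap. The type I collagen chain Col1a1 had a mean of 2073 ± 551 at 12 h and 6735 ± 286 (SD, n = 3) at 24 h (1.80 ± 0.21, adjusted p = 2.73e-07). All 3 chains of collagen VI, which forms beaded filaments around cells, rose: Col6a2 from 2825 ± 87.7 to 7875 ± 1100.5 (1.52 ± 0.12, adjusted p = 1.79e-10), Col6a1 by 1.37 ± 0.12 and Col6a3 by 1.25 ± 0.13. Among the other fibril-forming chains Col3a1 reached a mean of 10091 and rose by 1.10 ± 0.11. Collagen VI and Col3a1 were higher at 12 h than at 6 h too, by 0.84 (adjusted p = 0.000545) for Col6a2, 0.69 (0.00752) for Col6a1 and 0.72 (0.00368) for Col3a1, whereas Col1a1 was at 0.02 (adjusted p = 0.996). The microfibril gene Mfap2 rose by 2.61 ± 0.43 from a low level of 22.1 ± 10.9. Averaged over all probe sets, Col1a1 rose by 0.91, Col3a1 by 1.75 and Mfap2 by 1.25.

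Small leucine-rich proteoglycans, which bind collagen and set the width of its fibrils, and the enzymes that mature and crosslink collagen rose with the fibrils. Of 23 measured members, 14 rose and 1, the proteinase enhancer Pcolce2 (-1.0), fell (median 0.60). Asporin, Aspn, had signals of 138, 96.3 and 85 at 12 h and 1049, 928 and 842 at 24 h (3.14 ± 0.21, adjusted p = 2.15e-11). Ogn, or osteoglycin, went from 178 ± 15.8 to 834 ± 113 (2.26 ± 0.21, adjusted p = 5.65e-09). Omd (1.74 ± 0.29) and Lum (1.23 ± 0.27) of the same family also rose, from low means of 11.6 and 83.1 at 12 h. Biglycan, Bgn, was abundant at both times, at 4839 ± 976 at 12 h and 8106 ± 1077 (SD, n = 3) at 24 h (0.82 ± 0.10, adjusted p = 1.42e-06). Lox, the oxidase that crosslinks collagen and elastin, rose by 1.22 ± 0.13 and the collagen chaperone Serpinh1 by 0.90 ± 0.12, with adjusted p = 1.06e-07 and 3.78e-06. Matrix production and matrix-degrading enzymes both changed. Of 21 metalloproteinases and inhibitors 11 rose and 2 fell (median 0.53). The gelatinase Mmp2 rose from 617 ± 104 to 1531 ± 73.1 (1.41 ± 0.13, adjusted p = 3.63e-09), and Mmp11 (1.60 ± 0.21), Adamts1 (1.47 ± 0.18) and Mmp9 (2.11 ± 0.32) also rose. Their inhibitors split: Timp3, which is held in the matrix, rose by 1.18 ± 0.14, and the soluble Timp1 fell, with signals of 1463, 2110.3 and 2111 at 12 h and 843, 999 and 1006 at 24 h (-0.99 ± 0.12, adjusted p = 6.15e-07). The other gene that fell was Mmp3 (-0.43), and 1 gene fell without 12 h replicates 2 or 3 or 24 h replicate 3. The count was also 1 as deposited, under median centring, averaged over all probe sets, with no trend of the spread and with only the 6 arrays.

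Genes of sterol synthesis rose without exception: 20 of 20 measured members passed and 0 fell, with a median of 2.08, where 5.86% of all genes rose. Their summed signal was 6532 ± 177 (SD, n = 3) at 12 h and 30168 ± 2665 at 24 h. Taken in the order of the pathway, Hmgcs1, which makes HMG-CoA, had signals of 1113, 1482 and 1121 at 12 h and 4981, 6246 and 5299 at 24 h (2.20 ± 0.16, adjusted p = 6.75e-11). The mevalonate steps Mvk (1.97 ± 0.18), Pmvk (1.30 ± 0.19) and Mvd (3.12 ± 0.23, adjusted p = 1.26e-10) and the isomerase Idi1 (2.68 ± 0.16, adjusted p = 1.61e-12) followed. Fdps, which makes farnesyl diphosphate, the last intermediate shared with the isoprenoid pathways, had signals of 497, 423 and 553 at 12 h and 3902, 3908 and 4578 at 24 h (3.16 ± 0.25, adjusted p = 3.59e-10, 8.41-fold). It rose more than any other member. The first enzymes of the sterol branch were Fdft1 (1.89 ± 0.14), Sqle, with signals of 377, 446 and 455 at 12 h and 2352, 2267 and 2751 at 24 h (2.64 ± 0.13, adjusted p = 3.47e-14), and Lss (1.56 ± 0.13). The lowest 24 h array of Sqle was several times the highest 12 h array.

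The enzymes that turn lanosterol into cholesterol rose as well. Cyp51 had a mean of 274 ± 6.30 at 12 h and 1430.1 ± 145 (SD, n = 3) at 24 h (2.47 ± 0.13, adjusted p = 5.68e-14), Msmo1 of 594 ± 72.1 at 12 h and 4316 ± 779 (SD, n = 3) at 24 h (2.94 ± 0.23, adjusted p = 2.32e-10) and Nsdhl of 228 ± 34 at 12 h and 1494 ± 150.2 (SD, n = 3) at 24 h (2.80 ± 0.12, adjusted p = 2.11e-15). Tm7sf2 (2.62 ± 0.23), Hsd17b7 (1.94 ± 0.14), Sc5d (1.60 ± 0.20) and Dhcr7 (2.32 ± 0.24) of the late steps rose by a like amount. The smallest rise was that of the isomerase Ebp (0.55 ± 0.15, adjusted p = 0.0159), whose normalized values overlapped between the times, and its call was lost without 12 h replicate 2 (adjusted p = 0.0936) or 3 (0.063), or 24 h replicate 2 (0.0622) or 3 (0.101). Regulators and carriers of the pathway were also higher: Insig1, which retains SREBP in the endoplasmic reticulum (1.78 ± 0.19), Srebf2, the gene of SREBP-2 itself (0.83 ± 0.16), and the cholesterol carrier Stard4 (1.34 ± 0.12). For 12 h minus 6 h the median of the list was 0.42, and Idi1 (0.88, adjusted p = 0.0107) and Hmgcs1 (0.81, adjusted p = 0.02) passed. Averaged over all probe sets, Fdps rose by 1.61, Fdft1 by 0.91 and Hsd17b7 by 1.17.

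The bases before the start of Hmgcs1 hold the letters of a sterol element, the kind of site to which SREBP factors bind, and are shown because it was the only sterol gene whose window matched. The motif searched was TCACNCCAC on both strands of the 250 bases before each start in RefSeq (build GRCm38.p6), and it is in capitals in the stretch chr13:119690189-119690247, plus strand.
Hmgcs1: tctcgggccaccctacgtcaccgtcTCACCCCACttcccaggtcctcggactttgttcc
Of 19 windows of sterol genes this 1 matched (5.3%), against 1.1% of all 32851 windows. The share was equal for genes of the unfolded protein response (5.3%). It was higher for fatty acid synthesis (5.6%), hypoxia and glycolysis (6.7%) and metalloproteinases and inhibitors (6.7%), while most other lists had no match. A single match thus does not set the sterol genes apart. The CCAAT box, whose letters bind the factor NF-Y, was found on either strand in 16 of the 19 windows (84.2%), against 33.8% of all windows. Its share was also 84.2% for the unfolded protein response, where 6 of 22 genes rose, and was lower for the other lists searched. A match is a run of letters and not a measured binding site.

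Fatty acid synthesis, the second pathway under SREBP control, was higher for 12 of 18 measured genes, with 0 lower (median 1.15). Scd1, which puts the double bond into stearate, had signals of 407, 472 and 493 at 12 h and 2006, 2403 and 1955 at 24 h (2.32 ± 0.12, adjusted p = 3.47e-14). Fads2, the first desaturase of polyunsaturated fatty acids, rose from 129.6 ± 15.2 to 928 ± 101 (2.86 ± 0.23, adjusted p = 4.83e-10), and Fads1 rose by 1.82 ± 0.14. The groups did not overlap for either Scd1 or Fads2. The elongase Elovl6 (2.07 ± 0.14), the fatty acid synthase Fasn (1.50 ± 0.12) and the phosphatidate phosphatase Lpin1 (2.14 ± 0.20) also rose. Averaged over all probe sets, the median of this list was 0.73. The list of adipocyte markers had 1 of 17 genes higher, Cebpb (0.67 ± 0.16), and 0 lower, where 5.86% of all genes rose and 6.65% fell. Cebpb lost its call under median centring (adjusted p = 0.11) and averaged over all probe sets (0.0714). Of the 17 markers 10 had means under 50 at both times. The fat cell hormone Adipoq was near background, at 10.8 ± 5.38 and 10.6 ± 3.89.

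**Figure D2:**
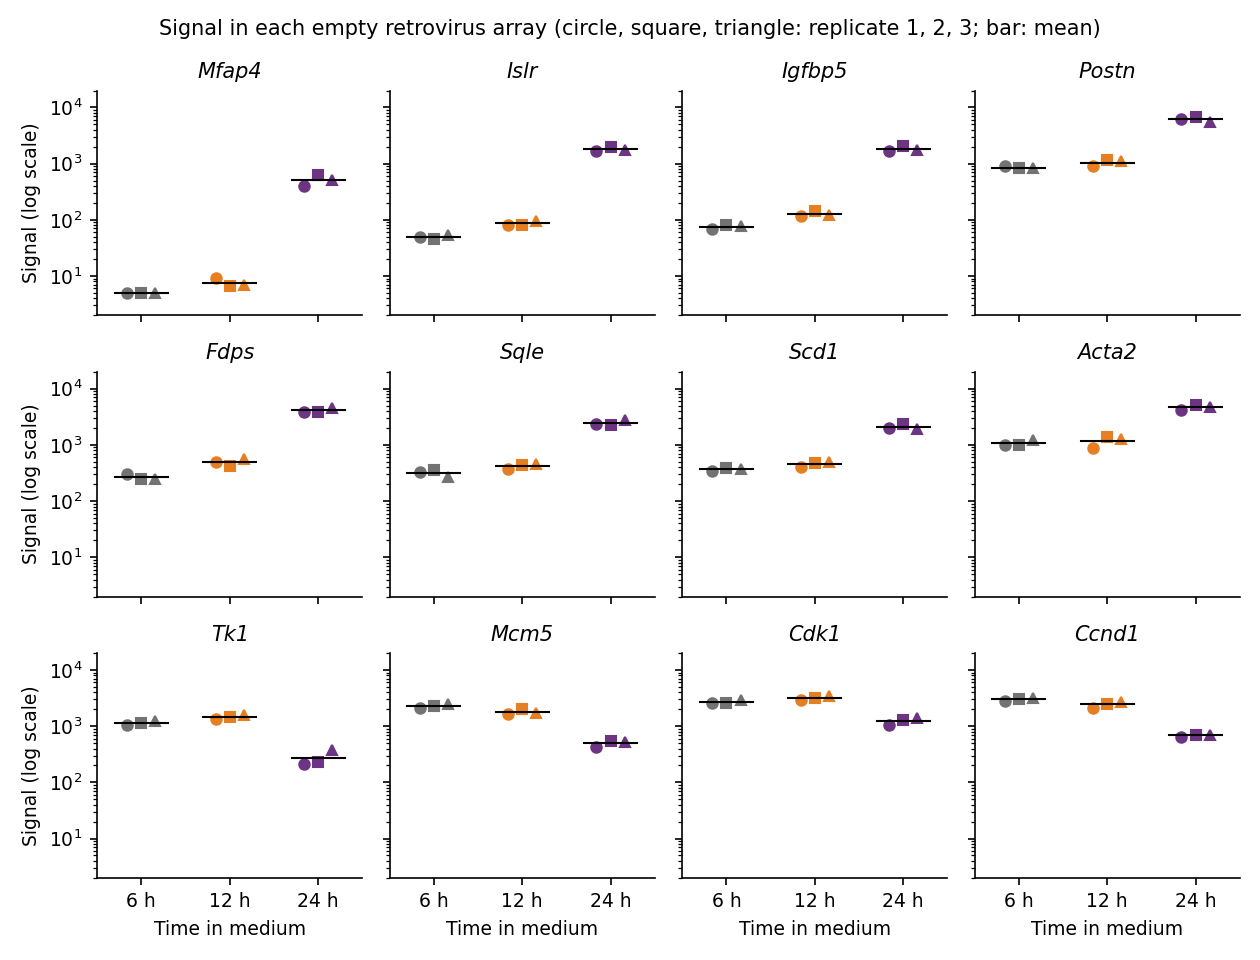
Signal of 12 genes on each of the 9 empty retrovirus arrays, on a log axis common to all panels, with 6 h in grey, 12 h in orange and 24 h in purple. Circles, squares and triangles are replicates 1, 2 and 3 and bars are means. Mfap4, Islr, Igfbp5, Postn, Fdps, Sqle, Scd1 and Acta2 lie higher at 24 h than at both earlier times, and Tk1, Mcm5, Cdk1 and Ccnd1 lower.

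DNA replication genes fell almost as a whole. Of 39 measured members 36 fell and 0 rose, with a median of -1.48, where 6.65% of all genes fell. The 3 that did not pass were Mcm2 (-0.82, adjusted p = 0.0571), which passed without 24 h replicate 1 (adjusted p = 0.0297) or 3 (0.0208), Tyms (-0.62, 0.0966) and E2f2 (-0.45, 0.566). Tk1, the thymidine kinase of dividing cells, had signals of 1363, 1441 and 1589 at 12 h and 213, 233 and 373 at 24 h (-2.55 ± 0.18, adjusted p = 4.35e-11). Mcm5 of the replicative helicase had 1633, 2051 and 1693 at 12 h and 429, 539 and 531 at 24 h (-1.91 ± 0.13, adjusted p = 1.03e-11), and its partner Mcm3 fell by -1.86 ± 0.18. Rrm2, the ribonucleotide reductase subunit that limits dNTP supply, went from 2416 ± 343 to 669 ± 85.8 (-1.90 ± 0.14, adjusted p = 8.29e-11). The groups were apart for each of these genes, and the 24 h arrays still carried a clear signal. Pole, the catalytic subunit of the leading strand polymerase (-2.01 ± 0.23, adjusted p = 3.12e-07), the primase Prim1 (-1.62 ± 0.12) and the sliding clamp Pcna (6315 ± 266 at 12 h and 2305 ± 255 (SD, n = 3) at 24 h, -1.36 ± 0.10, adjusted p = 1.64e-10) also fell. The summed signal of the list was 43018 ± 1187 at 6 h, 39074 ± 3609.8 at 12 h and 14533 ± 1557 at 24 h, with the drop after 12 h. Of its measured members only the licensing factor Cdc6 differed between 6 h and 12 h (-1.23, adjusted p = 0.0385), and it fell again after 12 h (-1.19 ± 0.26, adjusted p = 0.00188).

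E2F factors, which the retinoblastoma proteins hold inactive in resting cells, bind short sites before many of these genes. The letters TTTCGCGC, TTTGGCGC or TTTCCCGC were searched on both strands, and 8 of 40 windows of replication genes held one (20.0%), against 1.5% of all windows. The share was 13.6% for ribosome biogenesis, 9.1% for interferon response genes, of which 9 rose and 0 fell, and 8.3% for cell cycle exit. It was 2.6% for mitosis genes and at most 5.3% for the other lists searched. Below are 4 replication genes that held a site and fell. Each is shown with the site in capitals and 25 bases on either side where the window allows.
Mcm5: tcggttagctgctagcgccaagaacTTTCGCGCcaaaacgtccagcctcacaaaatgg
Mcm6: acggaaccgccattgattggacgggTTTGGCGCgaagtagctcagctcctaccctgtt
Rfc3: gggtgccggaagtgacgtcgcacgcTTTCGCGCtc
Uhrf1: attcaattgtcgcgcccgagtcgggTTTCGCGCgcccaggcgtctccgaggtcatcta
They lie at chr8:75109331-75109388 (plus strand), chr1:128359720-128359777 (minus), chr5:151651209-151651243 (minus) and chr17:56304103-56304160 (plus) of GRCm38.p6. In Mcm5 a second match, on the other strand, overlaps the first, and Mcm6 holds further matches upstream. Mcm6, of the same helicase, fell by -1.51 ± 0.12 (-0.96 averaged over all probe sets), the clamp loader subunit Rfc3 by -1.42 ± 0.25 and Uhrf1, which carries DNA methylation through replication, by -1.63 ± 0.19.

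Genes of mitosis fell with them, 38 of 43 measured, with 0 higher and a median of -1.11. Cdk1, the kinase that drives entry into mitosis, had signals of 2954, 3147 and 3385 at 12 h and 1046, 1272 and 1371 at 24 h (-1.34 ± 0.13, adjusted p = 1.5e-08). Spindle checkpoint and kinetochore genes were among the largest falls: Mad2l1 went from 1131 ± 175 to 341 ± 46.9 (-1.80 ± 0.15, adjusted p = 4.83e-10), Spc25 of the Ndc80 complex fell by -2.04 ± 0.21 and Spdl1, which brings dynein to kinetochores, by -2.15 ± 0.34. Cdca5, or sororin, which holds sister chromatids together, had signals of 627, 856 and 658 at 12 h and 135, 185 and 204 at 24 h (-2.10 ± 0.15, adjusted p = 4.64e-11). No 24 h array of these genes reached the 12 h range. Birc5 (-1.53 ± 0.14) and Cdca8 (-1.45 ± 0.13) of the chromosomal passenger complex and the topoisomerase Top2a (-1.45 ± 0.14) also fell. Arhgap19 fell by -2.02 ± 0.27 and Depdc1b by -2.30 ± 0.29, both to signals near background. Spdl1, Cdca5 and Depdc1b are not among the 43 listed genes and were named from the 14 largest falls. Averaged over all probe sets, Spc25 fell by 1.21, Top2a by 0.80 and Arhgap19 by 1.11. The 5 that did not pass were Ccnb2 (-0.21, adjusted p = 0.26), Racgap1 (-0.43, 0.285), Cdc25c (-0.59, 0.0849), Foxm1 (-0.64, 0.0643) and Kif23 (-0.83, 0.138). Kif23 passed without 12 h replicate 1 (adjusted p = 0.00509), Foxm1 without 12 h replicate 2 (0.0179) and Cdc25c without 24 h replicate 3 (0.0463). The summed signal of the mitosis list was 25827 ± 650.0, 36878 ± 1019 and 16922 ± 2007 at 6, 12 and 24 h, and 6 of its members, Hmmr and Ccnb2 among them, were higher at 12 h than at 6 h. Whether its timing differed from that of replication was not tested.

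Promoters of mitotic genes often hold a cell cycle homology region, to which the DREAM and MuvB complexes bind, together with CCAAT boxes. Searched as TTTGAA on both strands, it was in 12 of 39 windows of mitosis genes (30.8%), against 16% of all windows. The share was 26.7% for proteoglycans and crosslinking, 23.5% for fibroblast and progenitor markers and 23.1% for TGF-beta and BMP genes. In the first of these lists 14 of 23 genes rose. The other lists searched were at 15.2% or lower. CCAAT was in 30 of the 39 mitosis windows (76.9%), against 33.8%. The CCAAT share was higher for sterol synthesis and the unfolded protein response (84.2% each) and lower for the other lists searched. A match in each of 3 members that fell is shown in capitals. Cdk1 and Mki67 each hold a second match, which for Mki67 lies within the printed stretch in lower case.
Cdk1: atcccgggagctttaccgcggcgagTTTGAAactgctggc
Prc1: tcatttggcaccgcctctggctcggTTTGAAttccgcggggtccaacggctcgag
Mki67: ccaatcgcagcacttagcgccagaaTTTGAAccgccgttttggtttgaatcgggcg
Their places are chr10:69352913-69352952 (minus strand), chr7:80294421-80294475 (plus) and chr7:135716465-135716520 (minus). Prc1, which bundles the microtubules of the central spindle, fell by -1.80 ± 0.25, and Mki67, the source of the Ki-67 antigen of dividing cells, by -1.42 ± 0.25.

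Genes that drive growth fell beside the cell cycle genes. Of 25 ribosome biogenesis factors 19 fell and 0 rose (median -0.82). Nhp2, of the particles that convert uridine to pseudouridine in ribosomal RNA, had signals of 1259, 1716 and 1424 at 12 h and 325, 484 and 484 at 24 h (-1.85 ± 0.16, adjusted p = 1.99e-09), and the rRNA methyltransferases Nop2 (-1.24 ± 0.13) and Fbl (-1.0 ± 0.15) also fell. Of 31 serum response genes, which growth factors switch on, 10 fell and 2, Fosl2 (1.04 ± 0.13) and Atf3 (1.20), rose, 1 of them without 12 h replicate 2 or 24 h replicates 1 or 2. Ccnd1, the cyclin D1 that links growth factors to the cell cycle, had signals of 2087, 2501 and 2741 at 12 h and 643, 707 and 706 at 24 h (-1.87 ± 0.11, adjusted p = 8.69e-13). The AP-1 subunit Fosl1 went from 781 ± 189 to 192 ± 40.8 (-2.07 ± 0.19, adjusted p = 6.36e-09), and Errfi1, which restrains the EGF receptor, from 833 ± 109 to 224 ± 8.76 (-1.97 ± 0.12, adjusted p = 1.52e-12). All of their 24 h arrays were below all 12 h arrays. Dusp6, a phosphatase that ERK signalling induces to limit itself, fell by -1.55 ± 0.27, and Odc1, of polyamine synthesis, by -1.42 ± 0.10.

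In the list of growth factor and ERK feedback genes the falls were those of ERK targets and a ligand, and the rises included receptors. Etv4 (-1.97 ± 0.32, adjusted p = 4.84e-05), an ETS factor of FGF signalling, the phosphatase Dusp4 (-1.19 ± 0.23) and the EGF receptor ligand Ereg (-1.19 ± 0.21) fell. The receptor Pdgfra, which binds platelet-derived growth factor on fibroblasts, had signals of 364, 457 and 353 at 12 h and 1569, 1989.9 and 1563 at 24 h (2.22 ± 0.41, adjusted p = 0.000241). Its 24 h arrays all lay above its 12 h arrays, and averaged over all probe sets it rose by 1.14. In all, 5 of 22 genes rose and 5 fell, 3 rising without 12 h replicate 1. The largest of the named falls was that of Prkg2, a cyclic GMP-dependent kinase, with signals of 275, 369 and 260.0 at 12 h and 48.4, 34.7 and 33.7 at 24 h (-2.58 ± 0.22, adjusted p = 1.11e-09). The potassium channel gene Kcnk2 (-1.94 ± 0.19), the lamin gene Lmnb2 (-2.0 ± 0.34, -1.02 averaged over all probe sets) and the siderophore-binding Lcn2 (-2.41 ± 0.28, adjusted p = 4e-07) completed the largest falls. The other Lmnb2 probe set, with a mean signal of 118 over all arrays, did not change (-0.05, adjusted p = 0.981 in limma's test over all probe sets).

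Genes of cell cycle exit, among them the inhibitors of cyclin-dependent kinases, changed in part. Cdkn1a, which encodes p21, had means of 1376 ± 387 at 12 h and 985 ± 247 (SD, n = 3) at 24 h and did not pass (-0.46 ± 0.17, adjusted p = 0.0668), nor did Cdkn1b, which encodes p27 (0.85 ± 0.31, adjusted p = 0.0703). Cdkn1b passed when only the 6 arrays were fitted (adjusted p = 0.0271) and under 4 other alternatives (adjusted p = 0.0196 to 0.0487), and averaged over all probe sets it was at 0.46 (adjusted p = 0.309). Rbl1, the p107 relative of the retinoblastoma protein, which E2F factors themselves induce, fell by -1.73 ± 0.19 (-0.88 averaged over all probe sets). Of 22 genes of cell cycle exit 8 rose and 1 fell (median 0.47). Tob1, an antiproliferative factor (1.19 ± 0.25, adjusted p = 0.00101), Gadd45a (1.17 ± 0.17) and the atypical cyclin Ccng2 (0.93 ± 0.17) were among the rises. The count of rises was 5 without 12 h replicate 2, 4 without 12 h replicate 3 and 5 without 24 h replicate 1. There were 2 falls without 12 h replicate 1 or 24 h replicate 2.

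Genes of the amino acid response, which the factor ATF4 switches on when amino acids or charged tRNAs run short, rose in 14 of 26 measured cases and fell in 2 (median 0.73). Their summed signal was 23379 ± 664 at 6 h, 18354 ± 776 at 12 h and 24683 ± 1685 at 24 h (SD, n = 3). The sum at 24 h was thus near that at 6 h, with a lower level at 12 h. For 12 h minus 6 h the median was -0.21, and 3 members passed. Atf4 itself went from 1307 ± 319.8 to 2835 ± 389.9 (1.20 ± 0.15, adjusted p = 2.03e-06). Its target Chac1, which degrades glutathione, had signals of 134, 86.9 and 82 at 12 h and 506, 430.1 and 495 at 24 h (2.17 ± 0.20, adjusted p = 7.34e-09), and Ddit3, the stress factor CHOP, went from 459.9 ± 141 to 1252 ± 48.9 (1.59 ± 0.20, adjusted p = 9.35e-07). Trib3, a pseudokinase induced by CHOP and ATF4, had signals of 113, 47.2 and 63.1 at 12 h and 628, 334 and 473 at 24 h (2.56 ± 0.29, adjusted p = 2.21e-07). The arrays of the 2 times did not overlap for these genes. Slc3a2, the heavy chain of several amino acid transporters, rose by 0.95 ± 0.11. The falls were Phgdh (-0.81) and Psat1 (-0.69), of serine synthesis, and 1 gene fell without 24 h replicate 2. Averaged over all probe sets Atf4 rose by 0.71. Of 22 genes of the unfolded protein response 6 rose and 0 fell, with 2 rises without 12 h replicate 1, 3 without 24 h replicate 1 and 1 fall without 24 h replicate 3.

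The amino acid response element, here TGATGNAAT on either strand, was in 3 of 27 windows of this list (11.1%), against 0.8% of all windows. The genes with a match were Nupr1, Aars and Gars, with log2 differences of 2.54, 0.4 and 0.09, so a match did not go with a large rise in each. The element is shown for Nupr1, a small stress protein gene that rose by 2.54 ± 0.49, with the match on the other strand in capitals, at chr7:126625548-126625606 (minus strand printed).
Nupr1: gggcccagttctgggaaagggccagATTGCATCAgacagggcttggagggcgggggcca

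Genes that FoxO factors raise when insulin signalling is low, and genes of the insulin-like growth factor axis, changed in part. Of 21 genes of the first list 7 rose and 1 fell (median 0.39). Besides Trib3, which is on this list too, Txnip, an arrestin-like protein that limits glucose uptake, went from 603 ± 70.3 to 1449.9 ± 76.8 (1.35 ± 0.15, adjusted p = 9.94e-08), and Sesn1 (0.94 ± 0.17) and Sesn3 (0.90 ± 0.14), which restrain mTORC1, rose. Of 14 genes of the axis 5 rose and 0 fell. Igf1 had signals of 92.3, 94.2 and 62.9 at 12 h and 251, 253 and 209 at 24 h (1.39 ± 0.21, adjusted p = 2.01e-05), higher on every 24 h array. The decoy receptor Igf2r rose by 1.06 ± 0.15 and the growth hormone receptor Ghr by 0.94 ± 0.21, and Igfbp5 was described above.

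Secreted immune factors rose in part. Of 33 chemokines and cytokines 9 rose and 0 fell (median 0.31). The eosinophil attractant Ccl11 had signals of 76, 7.31 and 4.92 at 12 h and 140.0, 153 and 138 at 24 h (2.17 ± 0.39, adjusted p = 0.000199), and the alarmin Il33 had 35.4, 68.9 and 57.6 at 12 h and 203, 295 and 215 at 24 h (1.87 ± 0.32, adjusted p = 0.000119). Both were low at 12 h, where replicate 1 held most of the Ccl11 signal. Cxcl12, the abundant stromal chemokine, went from 3875 ± 129.5 to 6068 ± 199.96 (0.70 ± 0.13, adjusted p = 0.000306). Ptx3, a pentraxin that fibroblasts secrete, had signals of 46.4, 49.2 and 65.5 at 12 h and 482, 376 and 626 at 24 h (2.95 ± 0.23, adjusted p = 1.97e-10, 1.70 averaged over all probe sets). Of 14 measured genes of the complement list 4 rose and 1, the siderophore-binding Lcn2 described above, fell (median 0.12). Proteases of the classical pathway were among the rises, C1s1 from 525 ± 146 to 1829.9 ± 79.2 (1.95 ± 0.23, adjusted p = 4.25e-07) and C1ra by 1.55 ± 0.19. Among 32 interferon response genes 9 rose and 0 fell (median 0.50), 5 without 12 h replicate 1. H2-K1, a class I histocompatibility chain (1.28 ± 0.29, adjusted p = 0.00278), and Stat2, which carries the interferon signal (1.43 ± 0.32, adjusted p = 0.00246), kept their calls under each alternative, while Bst2 lost its call without 12 h replicate 1 (adjusted p = 0.113) and Ifit3 without that array (0.151) or 24 h replicates 2 (0.0842) or 3 (0.0672). Plxnc1, a semaphorin receptor of the same leading group (2.71 ± 0.34), rose by 1.08 averaged over all probe sets, and Ccdc25 rose by 2.66 ± 0.27 from near background.

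Smooth muscle genes, which activated fibroblasts also use, rose in part. Acta2, the smooth muscle actin, had signals of 882, 1386 and 1256 at 12 h and 4173, 5136 and 4768 at 24 h (2.06 ± 0.10, adjusted p = 1.83e-14, 4.0-fold), and Tagln, an actin-binding protein of smooth muscle, went from 219 ± 31.8 to 515 ± 72.9 (1.24 ± 0.17, adjusted p = 3.1e-06). The groups were apart for both, and averaged over all probe sets Acta2 rose by 0.89. Tpm1, a tropomyosin, rose by 0.96 ± 0.16. In all 7 of 21 genes rose and 1, Smtn (-0.78), fell, with 4 rises without 24 h replicate 1 and 0 falls without 24 h replicate 2. Of 30 skeletal muscle genes 0 rose and 1 fell, against 5.86% and 6.65% of all genes, so that few would pass at those shares. The 1 that fell was the acetylcholine receptor subunit Chrna1, from 82.5 ± 18.9 to 22.7 ± 14.7 (-1.36 ± 0.32, adjusted p = 0.00369). The summed signal of the 30 genes was 1533 to 1770.0 at 12 h and 1448 to 1799.7 at 24 h, and 21 of them had means under 50 at both times. Without 12 h replicate 1 there were 3 falls and without 24 h replicate 1 there were 2, and 1 gene rose without 12 h replicates 2 or 3 or 24 h replicate 1. Myog, the muscle factor that follows MyoD, was at 7.15 ± 3.48 at 12 h and 15 ± 1.93 (SD, n = 3) at 24 h (0.42 ± 0.22, adjusted p = 0.265). Myod1 was at 182 ± 11.8 at 12 h and 228 ± 24.6 (SD, n = 3) at 24 h (0.27 ± 0.35, adjusted p = 0.743) and Myf5 at 494 ± 192 at 12 h and 440.0 ± 139 (SD, n = 3) at 24 h (-0.14 ± 0.28, adjusted p = 0.853), and where their probe sets lie relative to the deleted parts was not known here, so neither signal checks the knockout. Esr1, the gene of the hormone receptor from which the fusion takes its domain, was at 25.7 ± 4.58 at 12 h and 60.2 ± 45.4 (SD, n = 3) at 24 h (0.67 ± 0.37, adjusted p = 0.302), and passed without 24 h replicate 2 (adjusted p = 0.0486).

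Several markers of fibroblasts were high at both times, and 7 of the 23 measured had means under 50 at both. Vim, the intermediate filament of mesenchymal cells, had means of 10067 ± 708 and 10195 ± 1094 (SD, n = 3) at 12 h and 24 h, the surface marker Thy1 of 2088 ± 566 and 2144 ± 213, and the limb and mesenchyme factor Prrx1 of 2007 ± 335 and 1878 ± 103. Of 23 fibroblast and progenitor markers 6 rose and 0 fell, led by Islr and Pdgfra, and 1 fell without 12 h replicate 1 or 24 h replicate 2. None of the 19 macrophage and blood, 15 endothelial, 15 epithelial, 18 neuronal and glial or 16 chondrocyte and osteoblast markers passed in limma's test over all arrays, and 1 endothelial gene fell without 24 h replicate 1. At the shares of all genes, 5.86% higher and 6.65% lower, few would pass in lists of this size. Means were under 50 at both times for 11, 9, 9, 10 and 8 of these markers, in the same order. Summed signals of these lists were 666 to 1204 at 12 h and 738 to 1011 at 24 h for macrophage and blood, 508 to 999 and 428 to 726 for endothelial, and 758 to 958 and 887 to 989 for epithelial genes. The pan-leukocyte gene Ptprc was at 13.5 ± 12.9 and 18.1 ± 8.28 and the endothelial cadherin Cdh5 at 29 and 38.4, near background, and Epcam, of epithelia, at 227 ± 64.7 at 12 h and 419 ± 91.5 (SD, n = 3) at 24 h did not pass (0.91 ± 0.35, adjusted p = 0.0978). In RNA from whole cultures, fewer cells of a type and less RNA per cell cannot be told apart. The reference gene Actb was at 10123 ± 2430.2 at 12 h and 9453 ± 1529 (SD, n = 3) at 24 h and did not pass (0.08 ± 0.13, adjusted p = 0.806), and its sign turned as deposited (-0.08), under median centring (-0.05) and averaged over all probe sets (-0.28).

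**Figure D3:**
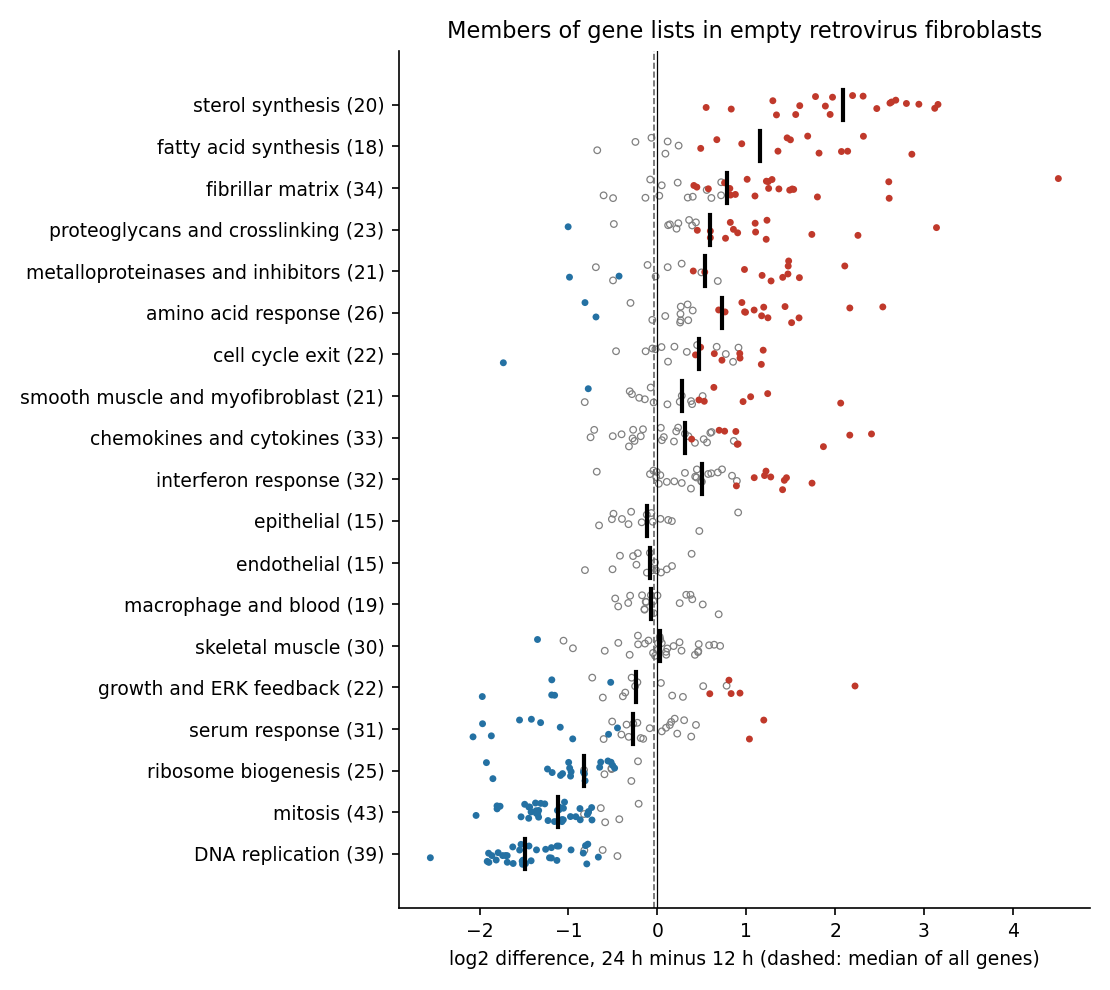
Log2 difference, 24 h minus 12 h, of the measured members of 19 gene lists, 1 point per gene, with filled points past an adjusted p of 0.05 (red higher, blue lower), a bar at the median of each list and a dashed line at the median of all genes (-0.04). All 20 sterol synthesis genes lie to the higher side, and 36 of 39 DNA replication genes and 38 of 43 mitosis genes are filled on the lower side.

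The same interval was measured in the cells with a fusion protein, and for each gene it was tested whether their change from 12 h to 24 h minus that in empty retrovirus cells differed from 0. In ER-MyoD wt the difference was above 0 for 762 genes (4.19%) and below 0 for 998 (5.49%). In ER-MyoD RRR it was above 0 for 478 (2.63%) and below 0 for 576 (3.17%). Both tests use the same 6 empty retrovirus arrays, so their counts are not independent of each other. Across all genes, which are not independent replicates, the change in empty cells had a Pearson's r of 0.29 with that in ER-MyoD wt and 0.34 with that in ER-MyoD RRR.

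Sterol synthesis rose less after 12 h in the cells with MyoD, in which it was already high. Below 0 in ER-MyoD wt were 18 of 20 sterol genes and 0 were above, with 16 and 0 in ER-MyoD RRR. The summed signal in ER-MyoD wt was 40059 ± 2775 at 12 h and 50336 ± 4479 at 24 h, and in ER-MyoD RRR 28453 ± 2115 and 45002 ± 1878, against 6532 ± 177 and 30168 ± 2665 in empty retrovirus cells (SD, n = 3). The empty cells had the lowest mean sum at both times. For Fdps the means were 4819 ± 694 and 5909.7 ± 232 in ER-MyoD wt and 3439.9 ± 289 and 7028 ± 334 in ER-MyoD RRR, against 491 ± 65.3 and 4129.5 ± 388, and the change differed from that in empty cells by -2.89 ± 0.35, adjusted p = 1.49e-06 in wt and by -2.11 ± 0.35, adjusted p = 0.000261 in RRR.

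Matrix genes rose further in the empty cells than in ER-MyoD wt. Their summed signal was 62439 ± 3583 at 12 h and 63579 ± 7999.6 at 24 h in wt, 55705 ± 1950.0 and 85879.7 ± 10607 in RRR, and 49398 ± 2281 and 90475 ± 6514 in empty cells. Below 0 in ER-MyoD wt were 20 of 34 fibrillar matrix genes and 0 were above, with 11 and 0 in ER-MyoD RRR, and the median changes were -0.23 in wt, 0.35 in RRR and 0.79 in empty cells. Mfap4 was at 6.75 ± 3.31 and 12 ± 2.28 in ER-MyoD wt, where it stayed near background, and at 5.79 ± 1.02 and 80.1 ± 64.7 in ER-MyoD RRR, where the arrays varied widely. Its change differed from that in empty cells by -4.25 ± 0.40, adjusted p = 1.87e-08 in wt and -2.73 ± 0.40, adjusted p = 4.33e-05 in RRR. Islr was at 50 ± 11.7 and 117 ± 14.2 in wt and 57.2 ± 3.40 and 279 ± 28.6 in RRR, against 1809 ± 156 in empty cells at 24 h, with differences of -3.46 ± 0.29, adjusted p = 2.42e-09 and -2.48 ± 0.29, adjusted p = 1.72e-06. Lama4 and Igfbp5 were not low at 12 h in the cells with MyoD. Lama4 went from 215 ± 51.6 to 358 ± 80.7 in wt and from 239 ± 30.7 to 648 ± 165 in RRR, and Igfbp5 reached 2637 ± 364 in wt and 2731 ± 132 in RRR, both above the 1817 ± 188 of empty cells.

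Acta2 was already high in the cells with MyoD at 12 h, at 9481 ± 208 in ER-MyoD wt and 6248 ± 568 in ER-MyoD RRR, so the rise in empty cells to 4692 ± 486 took place below those levels. Genes of mitosis fell in all 3 kinds of cell and fell more with MyoD: 35 of 43 were below 0 in ER-MyoD wt and 23 in ER-MyoD RRR, 0 and 0 above, with median changes of -2.49, -2.03 and -1.11 in wt, RRR and empty cells. Their summed signal was 16922 ± 2007 in empty cells at 24 h, against 8540.1 ± 458 in wt and 12607 ± 260.1 in RRR, and at 12 h it was 36878 ± 1019, 49682 ± 726 and 50785 ± 2158. For DNA replication 19 and 6 of 39 genes were below 0 in wt and RRR and 0 and 0 above, and the sum at 24 h was 14533 ± 1557, 8509.5 ± 194 and 11174 ± 499.9 in empty, wt and RRR cells. Of the 30 skeletal muscle genes 20 were above 0 in wt and 20 in RRR, and 0 and 0 below.

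The 14 largest rises of the empty cells were each below 0 in ER-MyoD wt and 13 of them in ER-MyoD RRR, where Aspn did not pass (-0.26 ± 0.30, adjusted p = 0.74). These genes were chosen by their change in empty cells, which enters the difference, so this direction is no independent evidence. Of the 14 largest falls 4 differed in wt and 3 in RRR. Fosl1 fell less with either fusion (1.40 ± 0.27, adjusted p = 0.000696 in wt and 1.44 ± 0.27, adjusted p = 0.00102 in RRR), and Pole fell more (-1.56 ± 0.33, adjusted p = 0.00169 and -1.52 ± 0.33, adjusted p = 0.00381). Lmnb2 fell less in RRR (1.88 ± 0.48, adjusted p = 0.0158), and in wt its difference did not pass (1.16 ± 0.48, adjusted p = 0.149). Tk1, Prkg2 and Errfi1 fell in the empty cells with no called difference from either fusion, and the differences were -0.25, 0.61 and 0.29 in wt and 0.02, 0.33 and 0.41 in RRR.

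**Figure D4:**
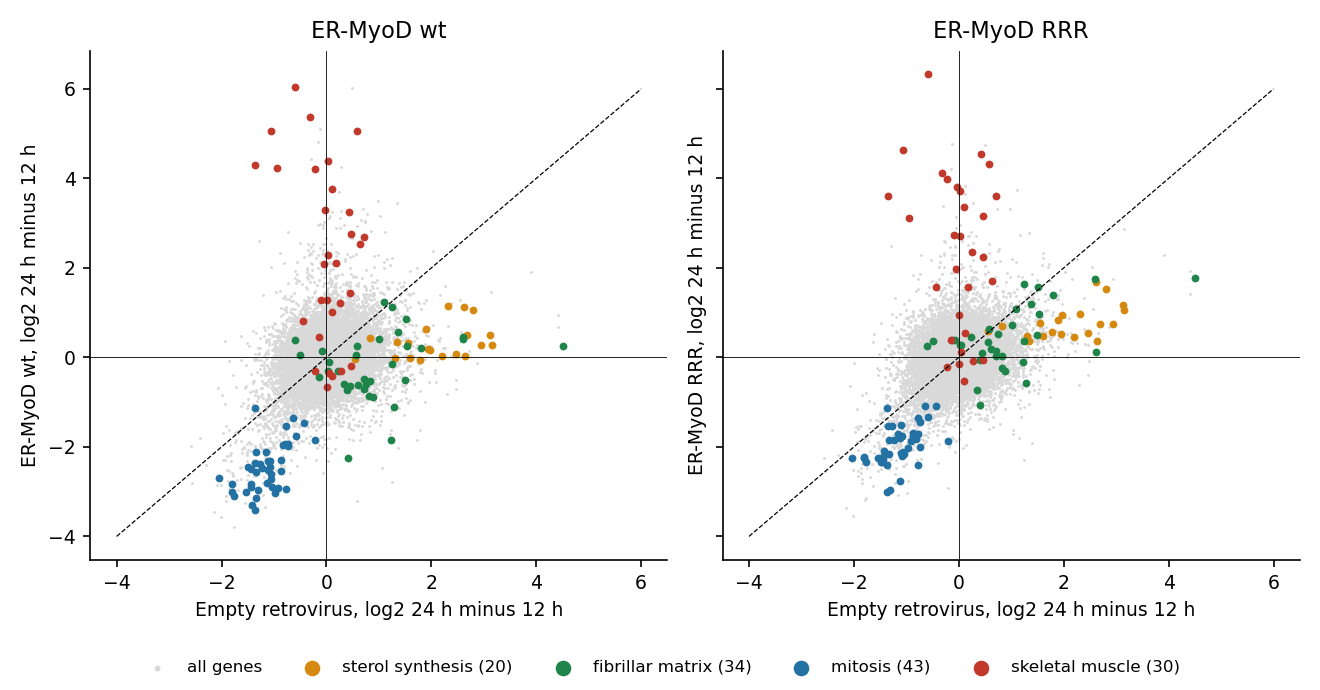
Log2 change from 12 h to 24 h of each gene in empty retrovirus cells (horizontal) against that in ER-MyoD wt and in ER-MyoD RRR (vertical), with the diagonal marking equal change. Sterol synthesis and fibrillar matrix genes lie mostly below the diagonal on the right, mitosis genes below it on the left, and skeletal muscle genes rise vertically near 0 of the horizontal axis, with a median of 0.03 in empty cells.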

How the data were processed

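Biotin-labelled total RNA was hybridised to 1-colour Affymetrix mouse arrays, per the labels. The authors deposited linear intensities, 1 for each probe set on each array. The scaling behind them was not given in the sources used here. The mean of each array without its extremes was 150, so arrays had been scaled to each other. Of 45101 probe sets 64 controls were left out. For each gene the brightest probe set over all arrays was used, among the 34945 with 1 symbol in the platform annotation (932 had several, 9160 none here). This gave 18193 genes, of which 9010 had further probe sets. No filter on low values was used.

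Values of log2(signal + 16), quantile normalized, entered limma (3.58.1, under R 4.3.3) with a mean for each group of the 30 arrays, lmFit and eBayes with trend, and 20 residual degrees of freedom. Tests were two-sided, adjusted by the Benjamini-Hochberg method over all genes, with a threshold of 0.05, and were checked on simulated data. Members and the 38 gene lists (855 of 929 names measured) were chosen with earlier results of these data known. Named first were the 14 largest rises and 14 largest falls that passed, among genes with no overlap of arrays. These also reached a mean signal of 50 in 1 group. Then came up to 5 members of smallest p from each list described, and fixed genes. Of the fixed genes Gapdh had no probe set with 1 symbol. Not described above are the lists for TGF-beta and BMP, Wnt, Notch, hypoxia and glycolysis, and oxidative stress. The same holds for circadian, p53, lysosome, histone, estrogen-responsive and retinoid genes. Of 30 TGF-beta and BMP genes 6 rose and 3 fell, of 23 hypoxia genes 4 and 5, and of 22 lysosome genes 7 and 0. Some of these counts moved with 1 array left out. The other sterol genes, list members that did not pass or that went against their list, members shown for a promoter match (Mcm6, Rfc3, Uhrf1, Prc1, Mki67, Nupr1), Mcm3, Cdc6, Col3a1, Mfap2, Omd, Lum, Mmp9, Lpin1, Dusp6, Fosl2, Ifit3, Hmmr, Vim, Thy1, Prrx1, Ptprc and Adipoq were named after their values were seen. Aars and Gars were named after their values were seen too. Promoter windows came from RefSeq (build GRCm38.p6), 32851 in all, which held 14452 of the 18193 genes. Figures used matplotlib 3.10.9 with pandas 2.3.3.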

Additional observations from a re-analysis of the deposited data

Results flagged for a closer look

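The change from 12 h to 24 h differed between ER-MyoD wt and empty retrovirus cells for 1760 genes, and between ER-MyoD RRR and empty retrovirus cells for 1054. The differences below are log2 changes in the cells with the fusion minus log2 changes in the empty cells, each past an adjusted p of 0.05 in limma's test, and all arrays entered. The genes are those with the largest changes in the empty cells, so part of each difference was fixed by that choice.

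Among genes for secreted, matrix and surface proteins, the differences in ER-MyoD wt were -4.25 for Mfap4, -3.73 for Lama4, -3.46 for Islr, -2.0 for Igfbp5, -1.67 for Aspn, -2.69 for Ptx3 and -2.58 for Plxnc1. In ER-MyoD RRR they were -2.73 for Mfap4, -3.0 for Lama4, -2.48 for Islr, -1.63 for Igfbp5, -1.19 for Ptx3 and -1.95 for Plxnc1.

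For lipid synthesis the differences in wt were -2.89 for Fdps, -2.63 for Mvd, -2.67 for Msmo1, -1.75 for Nsdhl, -2.18 for Idi1 and -2.99 for Fads2, and in RRR -2.11, -1.95, -2.19, -1.28, -1.93 and -2.19 in the same order. Ccdc25 differed by -2.15 in wt and -2.11 in RRR.

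Among genes that fell in the empty cells, Cdca5 (-0.75) and Pole (-1.56) fell more in wt, and Fosl1 (1.40) and Kcnk2 (0.91) fell less. In RRR Pole (-1.52) fell more, and Fosl1 (1.44) and Lmnb2 (1.88) had differences above 0.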

How the results depend on the processing

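Alternatives were values as deposited, median centring, pseudocounts of 4 and 64, a minimum mean signal of 50, fits of only the 6 or 9 empty retrovirus arrays, no trend, array weights, the mean of a gene's probe sets, a replicate block, each array of the groups compared left out, and the 3 arrays that stand apart left out. The count of falls (1210) was 607 under median centring and 753 with 6 arrays. Of the 1367 rises and falls under median centring, 1360 were among the 2277 of the original setting, in the same direction. The count of differing changes in ER-MyoD wt (1760) was 1145 under median centring. No other alternative moved these counts by over 1.5 times. Leaving out 1 of the 6 empty retrovirus arrays gave 778 to 1069 rises and 904 to 1088 falls, and 1 ER-MyoD array of 12 h or 24 h 1026 to 1132 and 1179 to 1278. Leaving out 1 array of either group compared gave 1435 to 1768 and 753 to 1117 differing changes in wt and RRR. Named genes kept direction and side of the threshold in 3440 cases, lost their call in 127, gained it in 22 and turned in 6. Actb (0.08) was -0.08 as deposited, -0.28 averaged over probe sets, -0.053 under median centring and -0.072 to 0.197 with 1 array left out, and Myf5 (-0.14) was -0.396 to 0.127 with 1 array left out, all without passing. With the replicate block 1141 genes rose and 1313 fell, and 1902 and 1174 changes differed in wt and RRR. Deviations of arrays of the same number correlated with r of 0.12, 0.08 and 0.06, so the numbers were not taken to pair the samples, although each 24 h array correlated best with the 12 h array of its number. The block fit changed no call of a leading gene. Dim probe sets, with signals near the pseudocount of 16, limit the size that a fold can show.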
